A study of Mus musculus with 14 samples.

Results

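Igf1, its receptor Igf1r and the binding proteins Igfbp3, Igfbp4, Igfbp5, Igfbp6 and Igfbp7 were followed in bone marrow stroma and blood-forming progenitors of mice with and without a breast tumour. These 7 genes were chosen by symbol, out of 50600 genes in the bulk table, with no threshold on measured values. Earlier results of these data were known when they were chosen. All 7 were present in the bulk table and in the stromal single-cell tables. The table of hematopoietic stem and progenitor cells (HSPC) lists 11992 genes, among them 5 of the 7; Igfbp3 and Igfbp5 are not listed there.

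The series holds 14 samples. In bulk, RNA of sorted mesenchymal stem cells (MSC) was sequenced in 4 libraries of tumour-free mice and 4 of mice with Py230 tumours. The Py230 line grew out of a mammary tumour of a PyMT mouse, and PyMT mice carry the polyoma virus middle T antigen as an oncogene in the mammary gland. Droplet single-cell libraries were made from marrow stromal cells of wild-type (WT) and PyMT mice, 1 library each, and from HSPC of 2 WT and 2 PyMT mice. The bulk and single-cell data thus rest on different tumour models. The sources used here do not give the strain, the age of the mice, the promoter of the oncogene, tumour stage or any pooling of animals. Every HSPC title begins with PyMT, but the genotype labels give WT for 2 of the 4, and the labels were used.

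Insulin-like growth factor 1 is a secreted growth factor made in liver and locally in many tissues, including marrow stroma and bone. It acts through the receptor tyrosine kinase Igf1r, which feeds the PI3K, AKT and mTOR pathway through the adaptors Irs1 and Irs2. Most IGF in tissue is held by IGF binding proteins, and proteases cut these proteins and free the ligand; pappalysin, encoded by Pappa, cuts IGFBP4 in this way.

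The sequences before the gene starts of the 3 members that passed the bulk test are shown, since Igf1 and Igfbp4 moved one way and Igf1r the other. They come from the RefSeq promoter table (build GRCm38.p6), and each covers 250 bases before to 50 bases after the annotated start. Capitals mark matches, on either strand, to 5 short motifs: the GC box GGGCGG, the TATA box TATAAA, the FOXO motif GTAAACA, the C/EBP motif TTGCNNCAA and the STAT motif TTCNNNGAA.
Igf1, chr10:87860861-87861160, plus strand: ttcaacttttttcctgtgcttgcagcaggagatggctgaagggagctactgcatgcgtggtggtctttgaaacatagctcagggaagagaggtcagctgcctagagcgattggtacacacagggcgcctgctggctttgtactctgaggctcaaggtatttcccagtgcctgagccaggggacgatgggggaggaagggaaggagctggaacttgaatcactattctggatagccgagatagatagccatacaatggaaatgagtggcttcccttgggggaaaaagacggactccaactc
Igfbp4, chr11:99040994-99041293, plus strand: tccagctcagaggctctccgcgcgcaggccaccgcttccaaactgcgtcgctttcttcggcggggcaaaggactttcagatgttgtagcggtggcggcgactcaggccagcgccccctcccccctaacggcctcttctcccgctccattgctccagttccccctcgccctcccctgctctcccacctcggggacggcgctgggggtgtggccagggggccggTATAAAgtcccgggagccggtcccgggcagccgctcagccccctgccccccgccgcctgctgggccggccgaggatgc
Igf1r, chr7:67952007-67952306, plus strand: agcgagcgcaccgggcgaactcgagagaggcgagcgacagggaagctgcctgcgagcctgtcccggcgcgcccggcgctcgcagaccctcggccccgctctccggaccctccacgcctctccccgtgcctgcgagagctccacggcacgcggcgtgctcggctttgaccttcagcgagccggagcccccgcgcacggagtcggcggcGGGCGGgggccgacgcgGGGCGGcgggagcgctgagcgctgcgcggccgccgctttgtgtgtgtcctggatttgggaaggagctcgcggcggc

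The Igf1 window held none of the 5 motifs, and its GC content was 52.3%, against a median of 52.7% over 32851 windows of this length. The Igfbp4 window held 1 TATA box, a motif found in 13.6% of all windows, and had 71.3% GC. The Igf1r window held 2 GC boxes and no TATA box, with 76.0% GC, above 96.9% of all windows; 35.7% of windows hold a GC box. The other 4 members had 49.7% to 73.3% GC, with 4 GC boxes in Igfbp7 and 1 TATA box, on the opposite strand, in Igfbp6. FOXO motifs occur in 3.65% of all windows, STAT motifs in 8.30% and C/EBP motifs in 2.08%, and the 7 member windows held none of these 3. A match here is a match of letters only. The RefSeq start used for Igf1 lies inside the GENCODE gene given next, and that used for Igf1r lies before it.

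In GENCODE M21 coordinates (GRCm38), all 7 are protein-coding genes. Igf1 lies at chr10:87858265-87937042 on the plus strand, Igf1r at chr7:67952827-68233668 on the plus strand, Igfbp3 at chr11:7206086-7213923 on the minus strand and Igfbp4 at chr11:99041244-99054392 on the plus strand. Igfbp5 lies at chr1:72857932-72874884 on the minus strand, Igfbp6 at chr15:102144362-102149511 on the plus strand and Igfbp7 at chr5:77349240-77408041 on the minus strand. Igf1 overlaps the antisense gene Igf1os, and Igfbp7 overlaps Gm34648 and Polr2b on the opposite strand. The sources used here do not give the strand setting of the bulk counting, so bulk reads of these overlapping stretches may not be told apart.

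The bulk libraries held 4301375 to 9811251 counted reads. Markers of leptin receptor (LepR) positive marrow stroma (Lepr, Cxcl12, Adipoq, Kitl, Ebf3, Esm1, Hp and Lpl) summed to 29482 to 31642 counts per 1000000 counted reads (CPM) in the tumour-free and 16797 to 19244 CPM in the Py230 libraries, without overlap. Cxcl12 carried most of this sum (means of 20064 and 10375 CPM), and Cxcl12, Adipoq, Ebf3 and Lpl fell by edgeR's test, whereas Lepr (log2 change −0.21), Kitl (−0.18), Esm1 (−0.72) and Hp (0.28) did not pass. Fibroblast markers summed to 782 to 918 CPM against 1052 to 1399 CPM, sinusoidal endothelial markers to 22.5 to 30.1 CPM against 36.8 to 65.7 CPM, and monocyte and macrophage markers to 52.2 to 66.3 CPM against 81.4 to 111 CPM. In all 3 sums the Py230 libraries lay above the tumour-free ones, and none of these markers was at 0 in every library. Few genes of each list passed: Dcn among the fibroblast markers, Flt4 and Stab1 among the sinusoidal and Csf1r among the macrophage markers rose by edgeR's test. The others did not pass or were too low to be tested. Dpt (log2 change −0.36), Mfap5 (−0.07), Stab2 (−0.39), Lyz2 (−0.58) and Mrc1 (−0.10) had values below 0. The highest means were those of genes that did not pass. These were Pdgfra among the fibroblast markers (699 CPM tumour-free, 856 CPM Py230) and Cd68 among the macrophage markers (36.7 and 54.1 CPM). The part of these shifts in the results below was not tested. In bulk RNA, fewer cells of a type and less RNA per cell cannot be told apart.

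Bulk MSC of tumour-bearing mice held less Igf1 and Igfbp4 RNA and more Igf1r RNA than MSC of tumour-free mice. Igf1 fell 3.29-fold and Igfbp4 1.82-fold, whereas Igf1r rose 1.61-fold. Igfbp5, by far the most abundant of the 7, and Igfbp3, Igfbp6 and Igfbp7 did not pass the test. With edgeR's quasi-likelihood test, Benjamini-Hochberg adjustment over 16317 genes and a threshold of 0.05, 1 of the 7 members was higher, against 1.99% of all genes, and 2 were lower, against 2.74% of all genes. The median log2 change of the 7 was 0.11, and that of all genes tested was 0.04. The values below are CPM with TMM library factors.

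**Figure D1:**
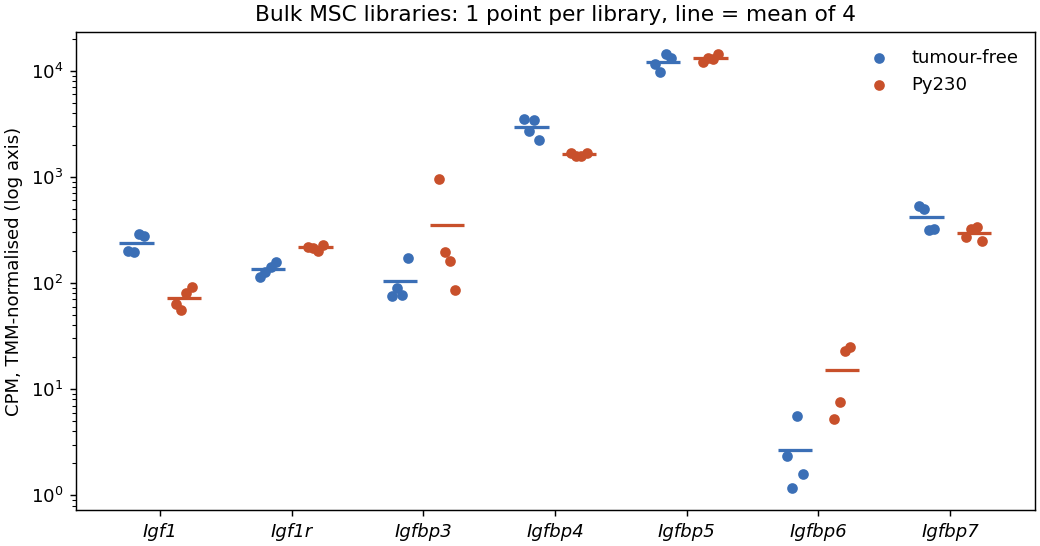
CPM of the 7 members in the bulk MSC libraries, on a log axis; each point is 1 library and each line the mean of 4 libraries, tumour-free in blue and Py230 in orange. Igf1 and Igfbp4 lie lower in all 4 Py230 libraries and Igf1r higher, and 1 Py230 library stands at 958 CPM of Igfbp3.

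Igf1, the ligand, stood at 199, 197, 286 and 275 CPM in tumour-free replicates 1 to 4 and at 63.4, 56.1, 79.9 and 92.0 CPM in Py230 replicates 1 to 4. Every Py230 library lay below every tumour-free library, as it did for 5.61% of all genes. The mean fell from 239 ± 48.1 CPM to 72.9 ± 16.2 CPM (SD over 4 libraries; log2 change −1.72, SE 0.17, edgeR adjusted p = 1.91e-04), and Igf1 ranked 27 of 16317 genes by p. Leaving out any 1 library gave log2 changes of −1.84 to −1.61, and its adjusted p stayed at or below 8.95e-04.

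Igf1r, the receptor, stood at 113, 127, 140 and 156 CPM in the tumour-free and at 218, 214, 202 and 230 CPM in the Py230 libraries. The groups did not overlap, with all 4 Py230 libraries above, as for 5.36% of all genes. The mean rose from 134 ± 18.2 to 216 ± 11.4 CPM (SD, n = 4; log2 change 0.69, SE 0.11, edgeR adjusted p = 0.00237). Ligand and receptor RNA therefore differed in opposite directions in the same libraries.

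Igfbp4, whose product binds IGF and is the substrate of pappalysin, stood at 3514, 2722, 3410 and 2246 CPM in the tumour-free and at 1691, 1579, 1583 and 1683 CPM in the Py230 libraries. The lowest tumour-free library lay above the highest Py230 library. The mean fell from 2973 ± 599 to 1634 ± 61.4 CPM (SD, n = 4; log2 change −0.86, SE 0.14, edgeR adjusted p = 0.00259).

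Igfbp5, a binding protein stored in bone matrix, stood at 11479, 9797, 14289 and 13081 CPM in the tumour-free and at 11991, 13228, 12950 and 14369 CPM in the Py230 libraries, and the groups overlapped (log2 change 0.11, SE 0.13, edgeR adjusted p = 0.781). By mean CPM it ranked 6 of 16317 genes. Igfbp7, a related secreted protein of low IGF affinity, stood at 532, 494, 318 and 326 CPM against 274, 324, 338 and 250 CPM, with overlap and an edgeR adjusted p of 0.157 (log2 change −0.49, SE 0.17).

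Igfbp3, the main carrier of IGF in blood, stood at 75.0, 89.5, 77.8 and 172 CPM in the tumour-free and at 958, 197, 161 and 85.2 CPM in the Py230 libraries. The groups overlapped, and Py230 replicate 1 stood far above the other 7 libraries (log2 change 1.76, SE 0.84, edgeR adjusted p = 0.383). Without that library the log2 change was 0.52 and the adjusted p 0.740. The same library also held the most RNA of arterial and capillary endothelial markers, 82.2 CPM against 10.5 to 32.3 CPM in the other 7 libraries. Gja5 (38.6 CPM) and Flt1 (22.0 CPM) carried most of this sum. Cd36 stood at 4.74 CPM in this library and at 6.62 CPM in tumour-free replicate 1, and Gja4, Gpihbp1 and Sox17 were too low to be tested. The part of those cells in its Igfbp3 level was not tested.

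Igfbp6, a binding protein that prefers IGF2, was the least abundant member. It stood at 2.34, 1.16, 5.55 and 1.60 CPM in the tumour-free and at 5.17, 7.56, 22.8 and 24.9 CPM in the Py230 libraries. The ranges met, since tumour-free replicate 3 lay above Py230 replicate 1. The log2 change of 2.46 (SE 0.61, edgeR adjusted p = 0.0549) did not pass, but it passed without tumour-free replicate 3 (adjusted p = 0.0346), without Py230 replicate 1 (adjusted p = 0.0231) and with DESeq2 (adjusted p = 3.70e-04). Summed tendon and cartilage markers were 168, 145, 223 and 138 CPM in the tumour-free and 211, 174, 300 and 476 CPM in the Py230 libraries. In both measures replicate 3 was highest among the former, and replicates 3 and 4 among the latter. Prg4 alone stood at 245 CPM in Py230 replicate 4. Fibroblast-like single cells, described below, were also high in Igfbp6. Summed fibroblast markers were 829, 782, 918 and 842 CPM in the tumour-free and 1399, 1166, 1242 and 1052 CPM in the Py230 libraries. Among the Py230 libraries this order differs from that of Igfbp6. The part of either cell type in the Igfbp6 level was not tested.

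Per kilobase of exon, which allows levels to be set side by side, tumour-free MSC held 2025 ± 325 CPM of Igfbp5, 673 ± 136 CPM of Igfbp4 and 345 ± 92.2 CPM of Igfbp7 (SD, n = 4). Igfbp3 followed with 33.1 ± 14.6 and Igf1 with 24.1 ± 4.85 CPM per kilobase, neighbours in the order that do not differ beyond their spread. Igf1r stood at 7.99 ± 1.09 and Igfbp6 at 2.40 ± 1.79 CPM per kilobase. In the Py230 libraries Igf1 stood at 7.36 ± 1.63 CPM per kilobase, below Igf1r at 12.9 ± 0.677, so that the order of ligand and receptor was the reverse of that in tumour-free MSC.

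Among 45 other genes of the pathway, 42 could be tested in bulk, with a median log2 change of 0.00. Of the 42, 2 were higher, against 1.99% of all genes, and 3 lower, against 2.74%. The largest of these changes was in Pappa, the protease of IGFBP4. It stood at 1037, 988, 1090 and 1029 CPM in the tumour-free and at 292, 434, 495 and 412 CPM in the Py230 libraries, well apart. Its mean fell from 1036 ± 41.8 to 409 ± 85.2 CPM (SD, n = 4; log2 change −1.34, SE 0.14, edgeR adjusted p = 1.32e-04). The other 4 genes for IGFBP proteases and their inhibitors did not pass edgeR's test, but DESeq2, and edgeR without the filter on low counts, called Pappa2 and Stc1 lower. Of these, Stc1, which encodes an inhibitor of pappalysin, stood at 14.3 ± 10.3 and 3.03 ± 0.754 CPM (edgeR adjusted p = 0.0556), and it was also called without tumour-free replicate 4.

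The insulin receptor gene Insr rose from 81.6 ± 8.08 to 118 ± 10.5 CPM (SD, n = 4; log2 change 0.53, edgeR adjusted p = 0.00850), the same direction as Igf1r. Among 24 genes of signalling below the receptor, Tsc1, which restrains mTOR, rose (log2 change 0.40, edgeR adjusted p = 0.0234). The adaptor Irs1 fell from 619 ± 67.3 to 438 ± 75.4 CPM (log2 change −0.50, edgeR adjusted p = 0.0427), and the inhibitory adaptor Grb14 fell from 71.6 ± 9.89 to 44.1 ± 9.08 CPM (log2 change −0.68, edgeR adjusted p = 0.0166). These 4 calls were less stable than those of Igf1, Igf1r, Igfbp4 and Pappa, which passed in all 8 fits that left out 1 library. Insr passed in 5 of the 8 and was lost without tumour-free replicate 1, 2 or 3 (adjusted p = 0.0505, 0.0763 and 0.0518). Grb14 passed in 6 and was lost without tumour-free replicate 1 (adjusted p = 0.0776) or 2 (adjusted p = 0.0593). Irs1 passed in 1 fit, without Py230 replicate 3 (adjusted p = 0.0155; 0.0846 to 0.132 without any other library). Tsc1 passed in 1 fit, without tumour-free replicate 4 (adjusted p = 0.0236; 0.0563 to 0.164 without any other library).

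None of the 6 genes of growth hormone input (Ghr, Jak2, Stat5a, Stat5b, Socs2 and Cish), the main systemic control of Igf1, passed edgeR's test in bulk. Of the 6, 3 had an edgeR unadjusted p under 0.05, as did 2636 of all 16317 genes tested. With DESeq2 none of the 6 passed either, and without the filter on low counts Ghr was called lower and Socs2 higher by edgeR. The growth hormone receptor Ghr stood at 681 ± 230.4 and 473 ± 146 CPM (SD, n = 4; edgeR adjusted p = 0.415). The 3 genes for IGF mRNA binding proteins did not pass in either direction, with edgeR or DESeq2, and 0 had an unadjusted p under 0.05. Igf2, at 14.5 ± 3.50 and 15.2 ± 9.15 CPM, showed no call either (edgeR adjusted p = 0.978).

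The stromal single-cell libraries show which cells hold each member. After removal of cells with under 500 genes or at least 10% mitochondrial reads, 2190 WT and 3191 PyMT cells remained, with 10222176 and 15542745 unique molecular identifiers (UMIs) and medians of 4176.5 and 4471 UMIs per cell. They fall into the authors' 6 clusters. Cluster 0 (977 WT and 2242 PyMT cells) was led by Adipoq, Hp, Esm1 and Cxcl12 and is LepR stroma-like. Cluster 1 (441 and 367 cells; Fmod, Chad, Prg4, Comp) is tendon and cartilage-like, and cluster 2 (559 and 346 cells; Dpt, Pi16, Ccl11, Mfap5) is fibroblast-like. Cluster 3 (55 and 120 cells) is sinusoidal endothelial-like, cluster 4 (95 and 61 cells) capillary endothelial-like and cluster 5 (63 and 55 cells; Bglap, Bglap2, Col1a1) osteolineage-like. The leading genes of cluster 5 also held the cartilage collagen genes Col2a1, Col11a1 and Col11a2, which are not in the marker lists used for naming. The leading genes of cluster 1 did not hold these collagen genes. The 2 libraries shared 2 cell barcodes.

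With 1 library per genotype there is no test: ratios are given with 95% exact Poisson intervals, which cover counting error only, and a ratio past 1.5-fold is counted as higher or lower. Levels here are CPM of UMIs summed over a cluster, from 3′ counting that needs no correction for length.

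**Figure D2:**
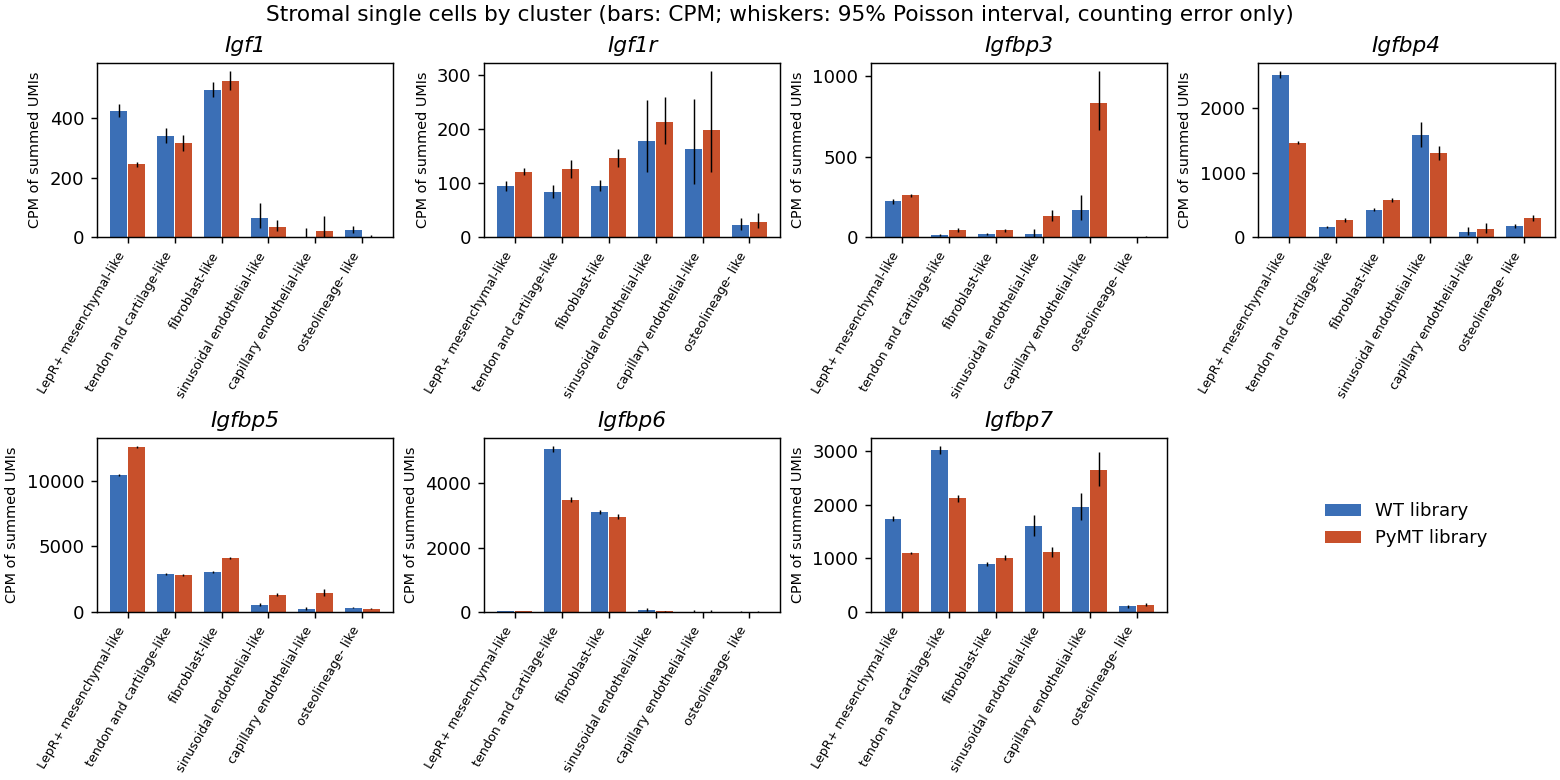
CPM of summed UMIs of each member in the 6 stromal clusters, WT library in blue and PyMT library in orange, with 95% Poisson intervals. Igfbp4 and Igfbp5 peak in the LepR stroma-like cluster and Igfbp6 in the tendon and fibroblast-like clusters, and Igf1 is high in all 3 mesenchymal clusters.

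Each member had its own distribution over the stroma. Igf1 was high in 3 clusters: 424 CPM in LepR stroma-like, 340 in tendon and cartilage-like and 495 in fibroblast-like cells of the WT library. It stood at 65.2 CPM in sinusoidal and 23.9 CPM in osteolineage-like cells, and no Igf1 UMI was found among 116668 UMIs of the capillary cluster, which allows up to 25.7 CPM. In the WT library 39.5% of all Igf1 UMIs came from LepR stroma-like and 41.0% from fibroblast-like cells.

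Igf1r was spread most evenly. In the WT library it stood at 83.2 to 94.7 CPM in the 3 mesenchymal clusters, at 178 CPM (95% interval 120 to 254) in sinusoidal and 163 CPM (98.1 to 254) in capillary endothelial-like cells, and at 22.6 CPM in osteolineage-like cells. The 3 mesenchymal clusters did not differ beyond their intervals. The capillary interval overlaps those of the LepR stroma-like and fibroblast-like clusters. In the PyMT library the endothelial clusters were again highest, with 212 and 198 CPM, and the osteolineage-like cluster lowest, with 27.8 CPM.

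Igfbp5 made up 10445 CPM in LepR stroma-like cells of the WT library and was found in 99.6% of them. It stood at 2916 and 3030 CPM in the tendon and fibroblast-like clusters and at 249 to 539 CPM in the others. Igfbp4 was likewise highest in LepR stroma-like cells, with 2511 CPM, and next highest in sinusoidal cells, with 1577 CPM, against 427 CPM or less elsewhere. In the WT library 81.1% of Igfbp4 UMIs and 86.8% of Igfbp3 UMIs came from the LepR stroma-like cluster, which held 44.6% of cells.

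Igfbp6 had the opposite distribution. It stood at 5063 CPM in tendon and cartilage-like and 3106 CPM in fibroblast-like cells of the WT library, and at 16.5 CPM in LepR stroma-like cells. In the LepR stroma-like cluster 3.28% of WT cells held an Igfbp6 UMI, within the 1.05% to 9.09% of the endothelial and osteolineage-like clusters, against 98.4% of fibroblast-like cells. The median depths of those clusters ran from 1116 to 11233 UMIs per cell, against 3591 UMIs in LepR stroma-like cells. A single LepR stroma-like cell of the WT library held up to 17 Igfbp6 UMIs. The source of the Igfbp6 UMIs in this cluster was not tested. Igfbp7 was found in every cluster, from 102 CPM in osteolineage-like to 3026 CPM in tendon and cartilage-like cells.

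By Pearson correlation of log2(CPM + 1) over the 12 points of 6 clusters in 2 libraries, out of 14111 other genes, the pattern of Igf1 was most like those of Apod (r = 0.95), Mettl7a1 and Glipr2. Igfbp5 was most like Gpm6b (r = 0.98), Igfbp6 most like Anxa8 (r = 0.99), Igf1r most like Cnn3 (r = 0.98), Igfbp3 most like Ier5l (r = 0.97), Igfbp4 most like Cited2 (r = 0.94) and Igfbp7 most like Vps37b (r = 0.96). The points share 2 libraries and differ in depth, so these values only describe likeness.

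Between the libraries, Igf1 and Igfbp4 were lower in LepR stroma-like cells of the PyMT library, as in bulk MSC of the other tumour model. Igf1 stood at 424 CPM (WT) and 244 CPM (PyMT; log2 ratio −0.79, 95% interval −0.89 to −0.70; 1.73-fold lower). Igfbp4 stood at 2511 and 1459 CPM (log2 ratio −0.78, −0.82 to −0.75), and Igfbp7 at 1742 and 1096 CPM (log2 ratio −0.67, −0.71 to −0.62). These 3 of 7 members lay past 1.5-fold lower, against 7.78% of 12617 genes measured with at least 20 UMIs, and 0 lay past 1.5-fold higher, against 11.2%. The median log2 ratio of the 7 was 0.10 and that of all measured genes 0.07.

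**Figure D3:**
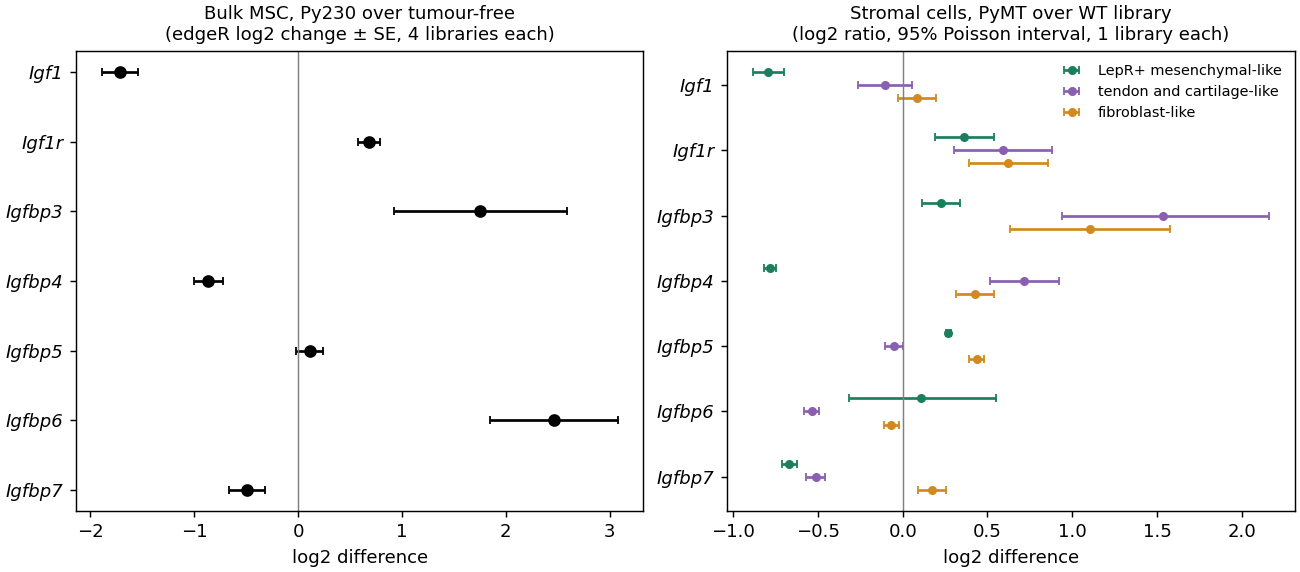
Left, log2 changes of the 7 members in bulk MSC (Py230 over tumour-free, edgeR, error bars SE, 4 libraries per group). Right, log2 ratios of summed UMIs (PyMT over WT library, 95% Poisson intervals) in 3 stromal clusters; Igf1 and Igfbp4 lie below 0 in bulk and in the LepR stroma-like cluster, and Igfbp4 lies above 0 in the other 2 clusters.

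The other 4 members differed less in LepR stroma-like cells. Igf1r stood at 94.2 CPM (WT) and 121 CPM (PyMT; log2 ratio 0.36, 0.19 to 0.54), the direction seen in bulk. It lay below Igf1 (424 and 244 CPM) in both libraries, so the reversed order of bulk Py230 MSC was not seen here. Igfbp5 stood at 10445 and 12595 CPM (log2 ratio 0.27, 0.25 to 0.29), Igfbp3 at 222 and 260 CPM (log2 ratio 0.23, 0.11 to 0.34) and Igfbp6 at 16.5 and 17.8 CPM (log2 ratio 0.11, −0.32 to 0.55). Counted per cell, 61.0% of WT and 50.8% of PyMT cells of this cluster held an Igf1 UMI, although the PyMT cells were deeper (medians of 3591 and 4421.5 UMIs). In osteolineage-like cells, with medians of 11233 and 9662 UMIs, these shares were 9.52% and 1.82%.

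Cells of the PyMT library held more immediate-early RNA (a list of 18 genes, with Fos, Jun, Egr1 and heat-shock genes among them, that respond quickly to many stimuli, tissue handling included). Of its LepR stroma-like cells, 24.4% lay at or below the WT median share of immediate-early UMIs, 3.28%. Among cells at or below that level in both libraries, the log2 ratio was −0.62 for Igf1, −0.52 for Igfbp4 and −0.44 for Igfbp7, and for the latter 2 this is within 1.5-fold. With each cell thinned to 1500 UMIs the ratio of Igf1 was −0.61.

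In tendon and cartilage-like cells Igf1 stood at 340 CPM (WT) and 316 CPM (PyMT; log2 ratio −0.11, −0.27 to 0.05), and in fibroblast-like cells at 495 and 524 CPM (log2 ratio 0.08, −0.03 to 0.20). Both intervals include 0, so no difference was detectable at this depth. The lower Igf1 level was thus measured in the LepR stroma-like cluster and not in the other 2 large clusters, and the difference between clusters was not tested.

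Igfbp4 was higher in the PyMT library in both of these clusters, 266 against 162 CPM in tendon and cartilage-like cells (log2 ratio 0.72, 0.52 to 0.92) and 574 against 427 CPM in fibroblast-like cells (log2 ratio 0.43, 0.31 to 0.54). The first of these was 0.36 when CPM was averaged over cells. Igf1r was higher in both as well, 125 against 83.2 CPM (log2 ratio 0.59, 0.30 to 0.88) and 146 against 94.7 CPM (log2 ratio 0.62, 0.39 to 0.86), and so lay higher in all 3 mesenchymal clusters. Among cells low in immediate-early RNA these 2 ratios of Igf1r were 0.41 and 0.26.

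Igfbp3 was low in these clusters and higher in the PyMT library, 45.1 against 15.5 CPM in tendon and cartilage-like cells (81 and 34 UMIs; log2 ratio 1.54, 0.94 to 2.16) and 44.3 against 20.6 CPM in fibroblast-like cells (log2 ratio 1.10, 0.63 to 1.58). Igf1r, Igfbp3 and Igfbp4 in tendon and cartilage-like cells, and Igf1r and Igfbp3 in fibroblast-like cells, lay past 1.5-fold higher. These are 3 of 7 members, against 17.2% of all measured genes, and 2 of 7 members, against 11.3%. None lay past 1.5-fold lower, against 5.33% and 5.60%. The median log2 ratio of all measured genes was 0.16 in the former cluster and 0.09 in the latter. With median-of-ratios library factors, under which every ratio of the tendon and cartilage-like cluster was lower by a log2 of 0.16, Igf1r (0.43 and 0.54) and Igfbp4 (0.56) came within 1.5-fold and Igfbp3 (1.38 and 1.02) did not.

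For some members the mix of cells moved the total. Over all stromal cells the Igfbp6 level was 2092 CPM (WT) and 812 CPM (PyMT; log2 ratio −1.37), yet within the tendon and fibroblast-like clusters, which held 99.6% of its WT UMIs, the log2 ratios were −0.54 and −0.07. With every cluster weighted as in the WT library the ratio was −0.29. Those 2 clusters made up 45.7% of cells in the WT and 22.3% in the PyMT library. Conversely, Igfbp4 stood at 1122 and 1142 CPM over all cells, and its ratio with the WT mix of clusters was −0.46. Over all cells Igfbp3 and Igfbp5 lay past 1.5-fold higher, against 15.8% of all measured genes, and Igfbp6 lay past 1.5-fold lower, against 9.76%. With the WT mix of clusters the log2 ratios of Igfbp3 (1.08 over all cells) and Igfbp5 (0.80) were 0.49 and 0.27, within 1.5-fold. Igfbp7 had a log2 ratio of −0.51 in tendon and cartilage-like and 0.17 in fibroblast-like cells.

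The small endothelial clusters were described with their few cells. In the sinusoidal cluster Igfbp3 stood at 17.8 CPM (WT, 3 UMIs) and 132 CPM (PyMT, 60 UMIs), and at 171 CPM (20 UMIs) and 832 CPM (84 UMIs) in the capillary cluster. The latter was its highest level in the PyMT library, whereas in the WT library it was highest in LepR stroma-like cells (222 CPM). Igfbp5 stood at 249 and 1475 CPM in the capillary cluster, and there summed LepR stroma markers stood at 8083 and 9446 CPM. Igfbp4, like Igfbp5 highest in LepR stroma-like cells, stood at 85.7 and 129 CPM in the capillary cluster. The part of LepR stroma RNA in these values was not tested. Osteolineage-like cells held 18 Igf1 UMIs in the WT and 1 in the PyMT library.

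Among 39 other pathway genes measured in LepR stroma-like cells, 4 lay past 1.5-fold higher in the PyMT library, against 11.2% of all measured genes. Another 2 lay past 1.5-fold lower, against 7.78%. Pappa was lower, with 836 CPM (WT) and 440 CPM (PyMT), a log2 ratio of −0.93 (−0.99 to −0.86), as it was in bulk. The RNA of Igf1, Igfbp4 and Pappa was thus measured lower in bulk Py230 MSC and in LepR stroma-like cells of the 1 PyMT library. In the tendon and fibroblast-like clusters Igfbp4 was higher in that library. The pathway genes were not compared among cells low in immediate-early RNA. In tendon and cartilage-like cells, where Pappa was low, it stood at 12.8 and 29.5 CPM. The adaptor Irs2 had the largest ratio, with 89.4 and 255 CPM (log2 ratio 1.51, 1.35 to 1.68), and it was higher in the tendon (log2 ratio 1.09) and fibroblast-like clusters (log2 ratio 1.18) too. In bulk MSC Irs2 stood at 661 ± 87.3 and 528 ± 53.5 CPM (SD, n = 4; edgeR adjusted p = 0.165), with the lower mean in tumour-bearing mice. Tsc1 (log2 ratio 0.99), the kinase subunit gene Pik3ca (0.61) and Stc1 (0.76, −0.05 to 1.67, with 15 and 72 UMIs) were past 1.5-fold higher, and Tsc2 (−0.61), the partner of Tsc1, was lower. In the tendon and cartilage-like cluster 8 of 36 pathway genes lay past 1.5-fold higher, against 17.2% of all measured genes. In the fibroblast-like cluster 2 of 35 (Irs2 and Cish) did, against 11.3%. In either cluster 0 lay past 1.5-fold lower, against 5.33% and 5.60%.

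HSPC, the blood-forming cells that the stroma surrounds, were measured for the receptor. UMIs were summed per mouse, which is the replicate here: 3422 and 2210 cells of 2 WT mice, and 3602 and 5608 cells of 2 PyMT mice. Each mouse gave between 16365550 and 28570481 UMIs. Pairs of mice shared 8 to 23 cell barcodes. Igf1r had a lower mean in the PyMT mice, but its change did not pass the test.

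Igf1r stood at 48.5 and 43.8 CPM (TMM) in WT mice and at 33.2 and 36.5 CPM in PyMT mice. The log2 change was −0.41 (SE 0.11, n = 2 per group; edgeR unadjusted p = 0.00353, adjusted p = 0.0748 over 11759 genes), the opposite direction to that in stroma. In the same fit 0 of the 5 listed members passed, and DESeq2 called 0 as well. Of the 5, 3 had an edgeR unadjusted p under 0.05, as did 2643 of all 11759 genes tested. Of all genes, 0.850% were called higher and 0.553% lower. Without PyMT mouse 1 the adjusted p was 0.0452 and without PyMT mouse 2 it was 0.00404, and without WT mouse 1 or 2 it was 0.276 and 0.164. Igfbp6 was also called without WT mouse 1, and Igfbp4 and Igfbp6 without PyMT mouse 2. Each of these fits leaves 1 mouse in a group, so the spread comes from the other group alone, and the lone mouse is assumed to vary like it. In plain CPM the values were 49.8, 46.5, 31.2 and 35.6.

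**Figure D4:**
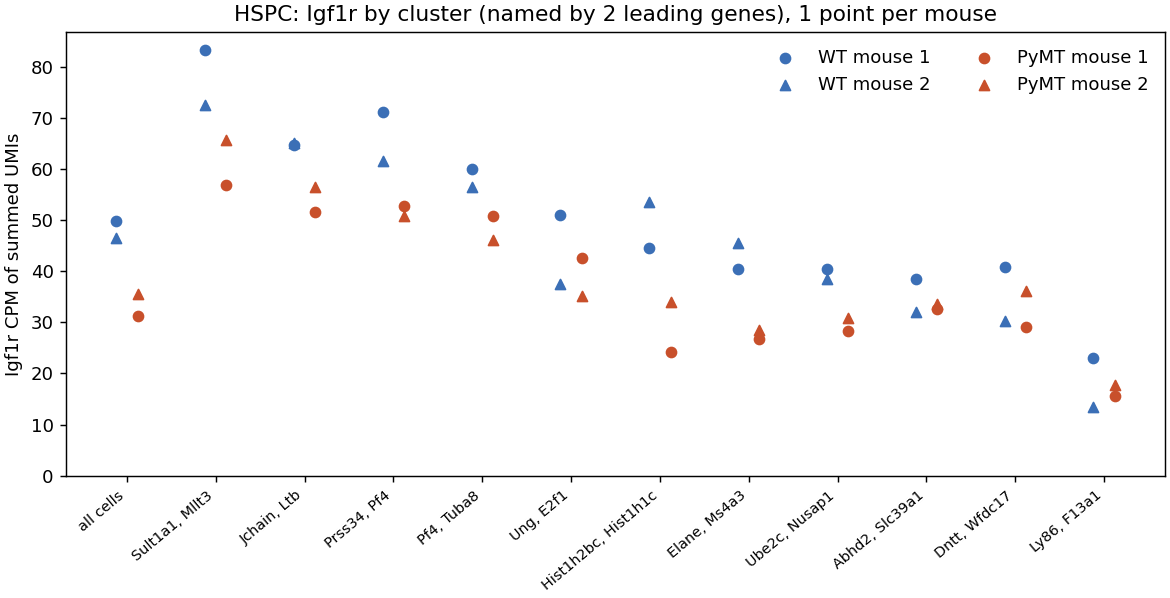
Igf1r CPM of summed UMIs in each mouse, over all HSPC and in the 11 clusters with at least 50 cells per mouse, named by their 2 leading genes; WT mice in blue and PyMT mice in orange. Over all cells the PyMT mice lie lower, and the level falls from the cluster led by Sult1a1 and Mllt3 to that led by Ly86 and F13a1.

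Igf1r differed between the HSPC clusters. The mean over 4 mice was 69.6 ± 11.2 CPM (SD) in the cluster led by Sult1a1, Mllt3 and Meg3, 59.5 ± 6.60 CPM in that led by Jchain, Ltb, Hlf and Procr, 59.1 ± 9.31 CPM in that led by Prss34, Pf4 and Gata1 and 53.3 ± 6.19 CPM in another led by Pf4 and Tuba8. Neighbours in this order do not differ beyond their spread. The cluster led by Elane, Ms4a3 and Mpo stood at 35.3 ± 9.09 CPM, and the Dntt cluster at 34.0 ± 5.45 CPM. The cluster led by Ly86, F13a1, Irf8 and Csf1r was lowest at 17.5 ± 4.17 CPM, and its highest mouse, at 23.1 CPM, lay below every mouse of every other cluster with at least 50 cells per mouse. A small cluster of 87 cells led by Car1 and Klf1 stood at 75.9 ± 18.0 CPM, from 46 UMIs in all. These levels are descriptions, since the clusters were drawn from the same cells.

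Within the 11 larger clusters the log2 change of Igf1r between genotypes ranged from −0.68 to −0.04, and 0 passed edgeR's test, although 3 had an unadjusted p under 0.05. With every cluster weighted equally the levels were 50.8 and 46.0 CPM for WT and 37.4 and 39.6 CPM for PyMT mice, a log2 ratio of −0.33. Cells in G1, S and G2M phase, by the authors' calls, held 42.8 ± 9.13, 36.2 ± 11.5 and 37.9 ± 8.49 CPM (mean and SD over 4 mice). G2M lay below G1 in each mouse. S lay below G1 except in WT mouse 2, where it was highest (52.1 CPM, against 47.4 CPM in G1). These differences between phases were not tested.

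Of the other members in the HSPC table, Igfbp4 was well above the receptor, with 299, 311, 370 and 275 plain CPM in WT mice 1 and 2 and PyMT mice 1 and 2, and the groups overlapped (log2 change 0.21, edgeR adjusted p = 0.435). Igf1 was nearly absent, with 19 and 9 UMIs in the WT and 6 and 6 UMIs in the PyMT mice. Igfbp6 had 10 and 4 against 34 and 33 UMIs (edgeR adjusted p = 0.0656), and Igfbp7 stood at 13.9, 8.43, 8.29 and 7.50 plain CPM (edgeR adjusted p = 0.361). Of all 11759 genes tested, 2643 had an edgeR unadjusted p under 0.05. Of 33 other pathway genes tested, edgeR called 0, and 11 had an unadjusted p under 0.05. DESeq2 called 2 of them, Jak2 and Stat5a, which carry signals of the growth hormone and cytokine receptors, both lower in the PyMT mice (edgeR log2 changes −0.65 and −0.44, adjusted p = 0.0597 and 0.0544).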

How the data were processed

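The members and gene lists were chosen with earlier results of these data known. The deposited bulk and single-cell tables hold raw counts, reads per Ensembl gene in bulk and UMIs per gene and cell otherwise, per the file headers and their whole-number values. The authors' stromal metadata give the mitochondrial share as a fraction and a cluster number at resolution 0.1, and the deposited HSPC metadata give it as a percent, with genotype, mouse and phase per cell. Per the submitters' processing notes, the tools named are STAR 2.5.3a, Trim Galore and Cell Ranger 6.0.0, with build mm10; the sources used here do not give the bulk counter, its strand setting or its annotation. Per the labels, bulk libraries were made with a stranded kit for small inputs.

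Groups came from the titles (bulk) and genotype labels (single cells). The labels do not say that bulk libraries are separate animals, so their p-values rest on a spread between libraries that may be technical. The test was edgeR 4.0.16 in R 4.3.3 (TMM, filterByExpr, robust quasi-likelihood, Benjamini-Hochberg, threshold 0.05), with DESeq2 1.42.0 as an alternative, after a check on simulated counts. Every adjusted p is from edgeR over all genes tested unless DESeq2 is named. Stromal UMIs were summed per authors' cluster and library; clusters were named from fixed markers, and doublets were not removed. HSPC were clustered with scanpy 1.11.5 and leidenalg 0.10.2 (2000 variable genes, 30 components, 20 neighbours, resolution 0.6). Ratios needed at least 20 UMIs over both libraries, and a count of 0 was given the limit of 3 counts. Intervals and limits cover counting error only. All 7 members are named with their values, and other pathway genes only where they passed the test or 1.5-fold, apart from Ghr, Igf2, Stc1, Pappa2 and Irs2 in bulk, Pappa in tendon and cartilage-like cells, and the single marker genes in bulk, which were chosen after their values were seen.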

Additional observations from a re-analysis of the deposited data

Results flagged for a closer look

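Of the 14 bulk groups of 4 libraries (7 members in 2 conditions), 2 held a library far from the other 3, by Dixon's 95% criterion, and chance flags about 1 group in 20. Both were groups of Igfbp3. Among the tumour-free libraries, replicate 4 stood at 172 CPM, against 75.0 to 89.5 CPM in the other 3. Among the Py230 libraries, replicate 1 stood at 958 CPM, against 85.2 to 197 CPM. It was also highest in summed arterial and capillary endothelial markers (82.2 CPM), mostly from Gja5 and Flt1, and the part of those cells was not tested.

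For Igfbp4 and Igfbp7 the PyMT over WT ratio had opposite signs in different stromal clusters, with counting intervals on either side of 0. The log2 ratio of Igfbp4 in LepR stroma-like cells lay below that in tendon and cartilage-like cells (difference −1.50) and below that in fibroblast-like cells (difference −1.21). The log2 ratio of Igfbp7 in LepR stroma-like cells lay below that in fibroblast-like cells by −0.84, and the ratio in tendon and cartilage-like cells lay below it by −0.69. With 1 library per genotype these differences between clusters were not tested.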

How the results depend on the processing

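In bulk, the calls of Igf1, Igf1r, Igfbp4 and Pappa held in all 14 alternative fits. Members called lower were 2 in each fit but that without the filter on low counts, where Igfbp7 made them 3. Members called higher were 2, with Igfbp6 beside Igf1r, under total counts, no filter on low counts, the replicate block, DESeq2, and without tumour-free replicate 3 or Py230 replicate 1 (leave-one-out range 1 to 2). The log2 change of Igfbp5, never called, reversed to −0.0198 without tumour-free replicate 2 (leave-one-out range −0.0198 to 0.16); the cause was not tested.

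Genes called higher (324) and lower (447) were 134 to 304 and 230 to 426 when 1 library was left out, and 171 were higher without tumour-free replicate 1 and Py230 replicate 3 together. Pathway genes called higher were 0 to 2 and lower 1 to 3 without 1 library, 1 and 6 without the filter, and 6 were lower with DESeq2. With the replicate number as a block, 176 genes were higher and 237 lower, 2 members were higher, and 1 pathway gene was called in each direction. Deviations of same-numbered libraries correlated at −0.39, −0.13, −0.20 and 0.02, which gives no sign of pairing by number. They cannot exclude pairing, which other differences between libraries can hide. Tumour-free replicate 1 and Py230 replicate 3, with the fewest genes detected (25088 and 21009), correlated at 0.52. No paired analysis was possible for single cells because the labels give those groups no shared replicate numbers.

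The log2 ratio of Igf1 in LepR stroma-like cells moved to −0.62 in cells low in immediate-early RNA and −0.61 after thinning. Of 105 stromal settings, 72 moved a ratio by less than its counting interval, 33 by more, and 0 reversed a called ratio. Igfbp6 in LepR stroma-like cells, within 1.5-fold at 0.11, was −0.33 with every deposited cell and past 1.5-fold higher in cells low in immediate-early RNA (0.61) and as a mean over cells (0.77). The HSPC change of Igf1r was −0.48 to −0.33 without 1 mouse, and its adjusted p was under 0.05 without PyMT mouse 1 (−0.35) or 2 (−0.48), in fits whose spread comes from the WT pair alone. Other pathway genes called in HSPC were 0 to 7 without 1 mouse. Its direction held in the other 18 settings, of which the fits within clusters and the equal weighting of clusters were chosen after seeing the data. With 1 stromal library per genotype and 2 HSPC mice, the number of samples limits these comparisons, and counts of a few UMIs limit the endothelial and osteolineage-like clusters.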
